A study of Mus musculus with 12 samples.

Results

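The genes described here encode the subunits of the mouse BAF complexes and a set of other chromatin remodellers, namely the ISWI, CHD, NuRD, INO80 and p400 motors or their partners. They were chosen by symbol, as the rows of the expression table whose Ensembl identifier carries one of 34 gene symbols in the GENCODE M21 annotation, and they make up 34 of 40384 rows. Of these, 32 reached 1 FPKM (counted fragments per kilobase of transcript, scaled to the depth of the library) in at least 3 of the 12 libraries and were tested together with all other genes that did, 17114 in total. Actl6b and Dpf3 did not reach that level and were not tested. Dpf1 reached it in the 3 iPSC libraries alone, so its test against the other groups carries no weight of its own.

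Remodellers are ATP-driven machines that slide, evict or restructure nucleosomes and so set how open a promoter or enhancer is. BAF complexes are assembled from a shared core, 1 of a pair of alternative ATPases and subunits that define a canonical form (cBAF), a polybromo form (PBAF) or a non-canonical form (ncBAF), and many positions are filled by 1 of several paralogs. Mouse embryonic stem cells are known for a form called esBAF, which holds Smarca4, Smarcc1 and Smarcd1 in preference to Smarca2, Smarcc2 and Smarcd3, and BAF, Chd1, Ino80 and NuRD have each been studied as regulators of reprogramming.

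The data are bulk RNA-seq of poly(A) RNA from 4 groups of 3 libraries. The iPSC group holds induced pluripotent stem cells, D4_DUX and D4 hold fibroblast cultures at day 4 of reprogramming with the label of DUX overexpression (OE-DUX) or of its control (OE-NC), and MEF holds embryonic fibroblasts. Per the labels, D4_DUX, D4 and MEF are 4F2A cells, whose fibroblasts came from mid-gestation male embryos homozygous for 4F2A, a doxycycline-inducible cassette of Oct4, Sox2, Klf4 and c-Myc. A growth text shared by every sample names serum replacement medium with LIF and doxycycline at 2 μg/mL, also for MEF, and a shared treatment text gives 48 h of DUX overexpression. The labels give neither the promoter or vector behind OE-DUX, nor the source embryo, clone or passage of the iPSC line, nor whether the 3 libraries of a group came from separate cultures, so p-values measure the spread between these libraries. The title of the study names Brg1, the product of Smarca4, as a reader of histone lactylation. The group labels used here name no change of Smarca4 or Smarca2, and these RNA data hold no measure of lactylation.

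Depth lay between 22510000 and 28120000 counted fragments per library, recovered from the steps of the FPKM values, and within-group correlations lay between 0.9902 and 0.9957. Duxf3, the annotated Dux gene, stayed below the level of 3 fragments (0.0396 to 0.0494 FPKM) in all 12 libraries and was listed at 0 in each of the 3 libraries labelled D4_DUX, so the level of this gene does not check that label. The 10 pluripotency markers summed to 1330 to 1480 FPKM in iPSC, 1.08 to 1.47 FPKM in D4_DUX, 1.19 to 1.55 FPKM in D4 and 0.181 to 0.535 FPKM in MEF. The 10 fibroblast markers summed to 740 to 977 FPKM in iPSC, 2440 to 2510 FPKM in D4_DUX, 3230 to 3350 FPKM in D4 and 6000 to 6130 FPKM in MEF. The 16 macrophage markers summed to 177 to 215 FPKM in iPSC, 50.6 to 51.7 FPKM in D4_DUX, 194 to 229 FPKM in D4 and 1620 to 1670 FPKM in MEF, and each was above 0 in at least 1 library of every group. The sums differ between most of the groups compared below, except that the macrophage sums overlap between iPSC and D4 and the pluripotency sums between D4_DUX and D4, and their part in the remodeller differences was not tested. In bulk RNA, fewer cells of a type and less RNA per cell cannot be told apart.

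Most of the tested members were higher in iPSC than in MEF, while Smarca2, Arid1b, Smarcc2, Smarcd2, Smarcd3, Brd9, Smarca1 and Chd3 were lower. Of the 32 tested members, 21 were higher and 8 lower in iPSC, where 82.2% of all tested genes were called (51% higher, 31.2% lower), so a call by itself says little here and the size and direction of each change carry the result. The median log2 fold change was 0.52 over the members and 0.21 over all genes. A fold change is on the scale of log2(FPKM + 1) throughout, which understates the change of low genes, and a call is an adjusted p under 0.05 in limma. Against D4, 23 members were higher and 6 lower in iPSC, where 82.4% of all genes were called (48.5% higher, 33.9% lower), with a median of 0.70 over the members and 0.16 over all genes. The higher members of both contrasts include Dpf1, which passed the filter through iPSC alone, so its direction was fixed by the filter. In these contrasts the scaling matters: with median-ratio scaling 18 members were higher and 11 lower in iPSC than in MEF, as all genes shifted to a median of 0.03, and with quantile normalization 17 and 10, at a median of -0.07. The share of all calls that were higher was 62.1% as deposited, 51.5% with median-ratio scaling and 46.6% with quantile normalization. Against D4 the members split 22 and 9 under either scaling, and that share was 58.8%, 50.9% and 46.7%.

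**Figure D1:**
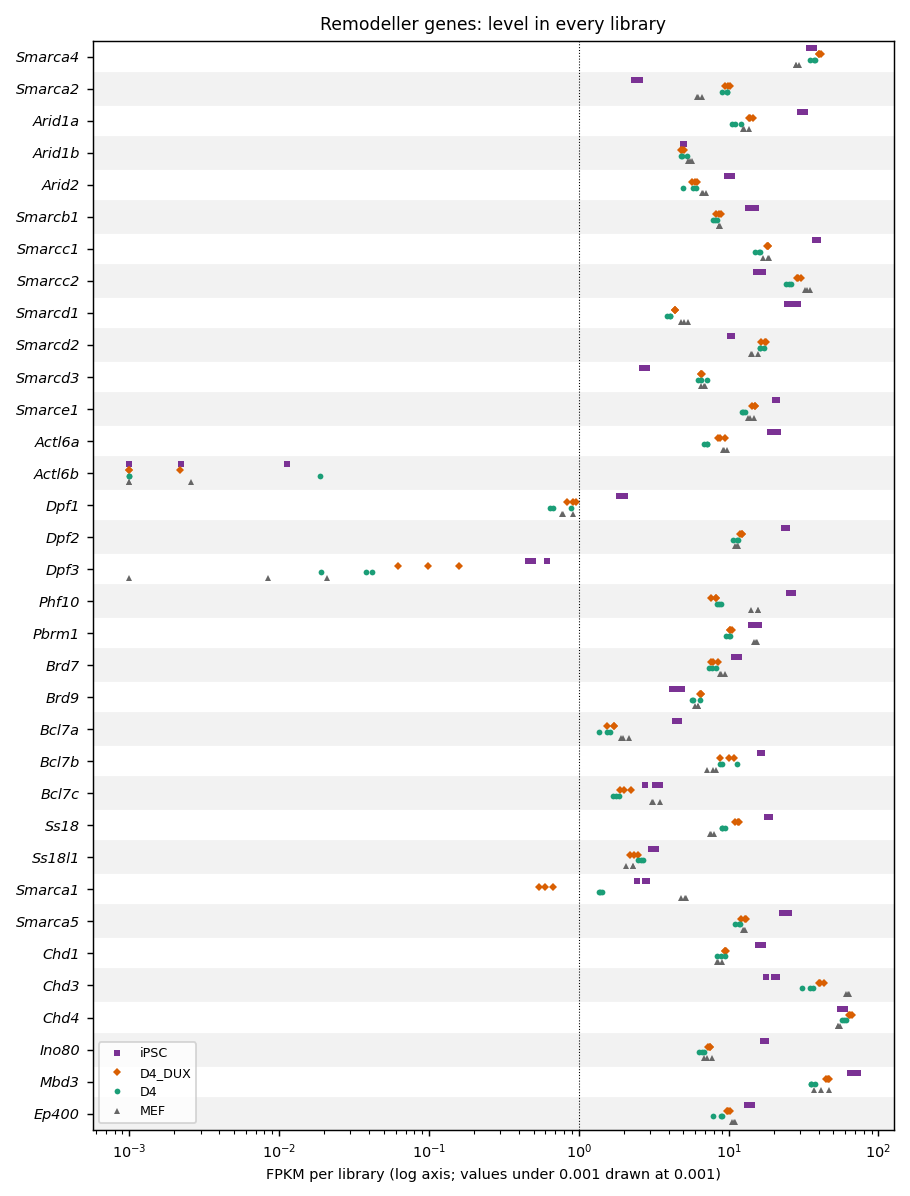
Level of each of the 34 remodeller genes in all 12 libraries, in FPKM on a log axis, with iPSC as squares, D4_DUX as diamonds, D4 as circles and MEF as triangles, and values under 0.001 drawn at 0.001. Smarcd1 in iPSC stands apart from the other groups to the right, Smarca2, Smarcd3, Smarcc2 and Chd3 in iPSC to the left, and Actl6b lies below 0.02 FPKM everywhere.

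The Smarcd position, a subunit that links BAF to transcription factors, showed the widest exchange. Smarcd1 (ENSMUSG00000023018, mm10 chromosome 15, 99702129 to 99713991) was at 24.6, 26.5 and 29 FPKM in iPSC, 4.37, 4.36 and 4.41 FPKM in D4_DUX, 4.06, 4.09 and 3.86 FPKM in D4 and 4.82, 5.4 and 5.01 FPKM in MEF. All 3 iPSC libraries stood above every other library, by a log2 fold change of 2.19 against MEF (limma adjusted p = 1.07e-11, SE 0.06) and 2.47 against D4 (SE 0.06, adjusted p = 3.52e-12), the highest of the tested members in both contrasts. Smarcd3, the paralog known for its role in heart and skeletal muscle, was at 2.86, 2.67 and 2.64 FPKM in iPSC, 6.59, 6.5 and 6.63 FPKM in D4_DUX, 6.56, 7.14 and 6.28 FPKM in D4 and 6.56, 6.83 and 6.93 FPKM in MEF. Its iPSC libraries lay below all the others, which overlapped among themselves, with -1.06 against MEF (SE 0.05, adjusted p = 1.02e-09). Smarcd2, known from blood cell development, was at 10.5, 10.2 and 10.5 FPKM in iPSC, 17.6, 16.5 and 17.7 FPKM in D4_DUX, 16.1, 17.2 and 16.1 FPKM in D4 and 15.7, 14.3 and 14.1 FPKM in MEF, again lowest in iPSC (-0.46 against MEF, SE 0.05, adjusted p = 1.67e-06). As a share of the summed FPKM of the 3 paralogs, Smarcd1 made up 66.9% ± 2.01 in iPSC, 15.5% ± 0.361 in D4_DUX, 14.7% ± 0.385 in D4 and 19.1% ± 1.27 in MEF (SD, n = 3 each). Each share given here depends on the gene lengths behind FPKM, which the sources used here do not name. Shares are therefore read between groups. The share of Smarcd2 was lowest in iPSC, with 26.2% in iPSC, 61.2% in D4_DUX, 60.7% in D4 and 55.4% in MEF. The summed level itself differed less, at 39.8 FPKM in iPSC, 28.2 FPKM in D4_DUX, 27.1 FPKM in D4 and 26.6 FPKM in MEF.

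Neighbouring genes limit the values of this family. Of the exon bases of Smarcd3, 48.2% are shared on the opposite strand with Chpf2 and Mir671, and Chpf2 was itself at 7.2 FPKM in iPSC, 20.8 FPKM in D4_DUX, 22.4 FPKM in D4 and 21.2 FPKM in MEF. The libraries were stranded per the labels, but the sources used here do not say whether the counting used strand. Without strand, reads on the bases that Smarcd3 and Chpf2 share cannot be told apart. Smarcd1 shares 12.7% of its exon bases on the opposite strand with Gm17349 and Gm34939, and Gm34939 was at 11.9 FPKM in iPSC, 2.1 FPKM in D4_DUX, 1.64 FPKM in D4 and 2.18 FPKM in MEF.

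The promoters of the paralogs that moved apart are shown for the Smarcd and Smarcc positions, as the 250 bases before the RefSeq start (GRCm38.p6, the assembly of mm10), on the strand of the gene, with the GC box GGGCGG or its complement CCGCCC in capitals. Smarcd1 and Smarcc1, high in iPSC, lie at chr15:99702037-99702286 on the plus strand and chr9:110131774-110132023 on the plus strand, and Smarcd3 and Smarcc2, low in iPSC, at chr5:24602003-24602252 on the minus strand and chr10:128458986-128459235 on the plus strand. The RefSeq starts of Smarcd1, Smarcc1 and Smarcd3 are not the outermost starts of these genes in M21. Those lie at 99702129 for Smarcd1, 110117708 for Smarcc1 and, on the minus strand, 24624411 for Smarcd3. The windows of Smarcc1 and Smarcd3 thus lie within the annotated gene. That of Smarcd1 runs past its M21 start, and its marked GC box lies beyond that start.
Smarcd1: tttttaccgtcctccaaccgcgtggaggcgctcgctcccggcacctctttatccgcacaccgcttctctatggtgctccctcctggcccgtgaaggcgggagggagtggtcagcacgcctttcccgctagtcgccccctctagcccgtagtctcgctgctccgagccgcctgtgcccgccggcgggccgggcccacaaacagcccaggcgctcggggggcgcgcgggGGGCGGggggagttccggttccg
Smarcd3: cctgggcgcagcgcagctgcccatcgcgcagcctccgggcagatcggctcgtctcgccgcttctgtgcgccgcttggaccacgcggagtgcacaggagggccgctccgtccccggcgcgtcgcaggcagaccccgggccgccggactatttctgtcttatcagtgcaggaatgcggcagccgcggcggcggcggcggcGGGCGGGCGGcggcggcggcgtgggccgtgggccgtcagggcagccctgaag
Smarcc1: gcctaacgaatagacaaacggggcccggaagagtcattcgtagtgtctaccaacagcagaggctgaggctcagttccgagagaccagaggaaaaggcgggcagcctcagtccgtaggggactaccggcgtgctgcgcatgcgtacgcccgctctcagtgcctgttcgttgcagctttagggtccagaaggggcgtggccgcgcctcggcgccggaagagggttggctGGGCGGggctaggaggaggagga
Smarcc2: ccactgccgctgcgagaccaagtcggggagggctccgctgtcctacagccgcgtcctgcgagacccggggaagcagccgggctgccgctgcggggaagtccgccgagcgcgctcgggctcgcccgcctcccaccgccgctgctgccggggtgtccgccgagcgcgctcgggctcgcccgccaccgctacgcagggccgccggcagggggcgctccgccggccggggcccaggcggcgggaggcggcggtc
All 4 windows are rich in CpG, with 29 in Smarcd1, 38 in Smarcd3, 21 in Smarcc1 and 40 in Smarcc2. Over the members, 28 genes had 31 promoter entries in the RefSeq table, with a median of 25 CpG (range 4 to 51), against a median of 6 over all 32851 entries. The GC box stood on either strand in 27 of the 31 member entries (87.1%) and in 32.7% of all entries. As GGGCGG holds a CpG itself and entries were not matched for CpG, this difference is not read apart from the CpG counts. Smarcc2 is among the member windows without it, while Smarcd1, Smarcd3 and Smarcc1 hold at least 1. The E-box CACGTG stood in 3 member entries (9.68%, against 6.02% of all), CCAAT in 8 (25.8%, against 33.8%) and the octamer ATGCAAAT in 0 (against 1.6%). Such matches describe the letters of these windows only. In these 4 windows none of the 4 motifs searched is held by both paralogs that were high in iPSC and by neither that was low.

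The ATPase pair shifted through Smarca2 more than through Smarca4. Smarca4 (BRG1; ENSMUSG00000032187, mm10 chromosome 9, 21616169 to 21704230) was at 34.5, 35.8 and 37 FPKM in iPSC, 41.6, 40 and 40.3 FPKM in D4_DUX, 37.9, 35.2 and 37.3 FPKM in D4 and 29.4, 28.1 and 28 FPKM in MEF. The iPSC and D4 libraries overlapped, and MEF was lowest. Smarca2 (BRM; ENSMUSG00000024921, mm10 chromosome 19, 26605050 to 26778322), the alternative ATPase, was at 2.34, 2.58 and 2.33 FPKM in iPSC, 10.2, 9.91 and 9.51 FPKM in D4_DUX, 9.69, 9.01 and 9.83 FPKM in D4 and 6.69, 6.3 and 6.17 FPKM in MEF. No library of iPSC came near the other groups, and the log2 fold change was -1.11 against MEF (SE 0.05, adjusted p = 8.98e-10) and -1.62 against D4 (SE 0.05, adjusted p = 3.24e-11). Smarca4 was thus 93.7% ± 0.401 of the pair in iPSC, 80.4% ± 0.391 in D4_DUX, 79.5% ± 0.285 in D4 and 81.7% ± 0.224 in MEF (SD, n = 3 each). The exons in M21 span 6475 bases in Smarca4 and 14269 bases in Smarca2, so the size of this share hangs on the lengths used. For Smarca4 itself, the difference between iPSC and MEF was 0.32 (SE 0.04, adjusted p = 8.74e-06), and that call ended under median-ratio scaling (0.08, adjusted p = 0.0905) and under quantile normalization (0.09, adjusted p = 0.0807). Between iPSC and D4 it was -0.04 (95% interval -0.12 to 0.05, adjusted p = 0.364), and it became a lower call under median-ratio scaling (-0.22, adjusted p = 0.000403) and under quantile normalization (-0.18, adjusted p = 0.00363).

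At day 4 both ATPase genes were above MEF. In D4 against MEF, Smarca4 was higher by 0.36 (SE 0.04, adjusted p = 7.34e-06) and Smarca2 by 0.51 (SE 0.05, adjusted p = 2.86e-06), and neither gene's D4 libraries overlapped those of MEF. Their summed level was 38.2 FPKM in iPSC, 50.5 FPKM in D4_DUX, 46.3 FPKM in D4 and 34.9 FPKM in MEF.

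**Figure D2:**
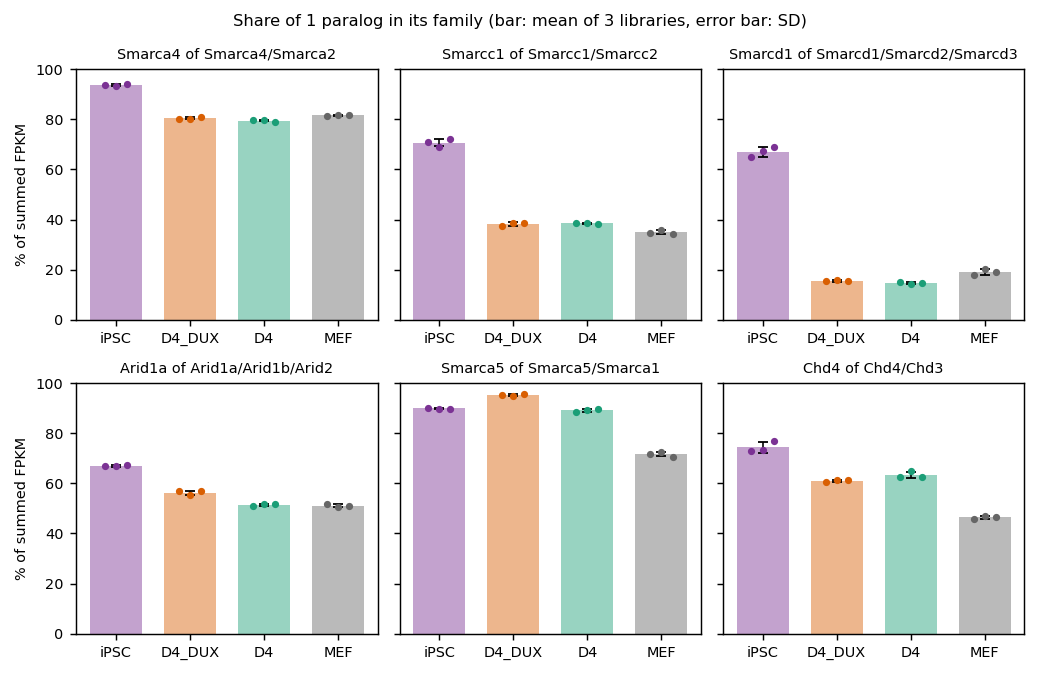
Share of 1 paralog in the summed FPKM of its family, in percent, for 6 families, with bars as the mean of 3 libraries, error bars as SD and points as libraries. The iPSC bars are the tallest for Smarca4, Smarcc1, Smarcd1, Arid1a and Chd4 (93.7%, 70.7%, 66.9%, 67.1% and 74.4%), while Smarca5 is tallest in D4_DUX (95.4%) and lowest in MEF (71.6%).

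The Smarcc scaffold genes, whose products form the dimer on which the BAF core is built, moved in opposite directions between iPSC and MEF. Smarcc1 was at 38, 38.2 and 39.3 FPKM in iPSC, 18.2, 18.4 and 18.1 FPKM in D4_DUX, 15.9, 15.1 and 16.3 FPKM in D4 and 18.4, 18.5 and 17 FPKM in MEF, and Smarcc2 at 15.4, 17.1 and 15.3 FPKM in iPSC, 30.5, 29.1 and 28.8 FPKM in D4_DUX, 25.2, 24 and 26.2 FPKM in D4 and 34.9, 33.3 and 32.4 FPKM in MEF. In FPKM, every iPSC library had more Smarcc1 than Smarcc2, and in each library of the other groups the order was the reverse. The order within a library depends on the lengths used (7832 exon bases in M21 for Smarcc1 and 5552 for Smarcc2). Only its change between groups is read. Smarcc1 was higher in iPSC than in MEF by 1.06 (SE 0.04, adjusted p = 1.96e-10) and Smarcc2 lower by a log2 fold change of -1.03 (adjusted p = 2.06e-09, SE 0.05). Smarcc1 made up 70.7% ± 1.5 of the pair in iPSC, 38.2% ± 0.788 in D4_DUX, 38.5% ± 0.198 in D4 and 34.9% ± 0.757 in MEF (SD, n = 3 each), and the sum of the pair was 54.5 FPKM in iPSC, 47.7 FPKM in D4_DUX, 40.9 FPKM in D4 and 51.5 FPKM in MEF.

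The other core subunits, which have no paralog filling the same place at these levels, were all higher in iPSC. Smarcb1, which contacts the nucleosome surface, averaged 14.5 ± 0.926 FPKM in iPSC, 8.58 ± 0.305 FPKM in D4_DUX, 8.16 ± 0.272 FPKM in D4 and 8.71 ± 0.0996 FPKM in MEF (SD, n = 3 each). Smarce1, the HMG-box subunit, was at 21, 20.8 and 20.5 FPKM in iPSC, 15, 14.3 and 15.1 FPKM in D4_DUX, 12.3, 12.5 and 12.8 FPKM in D4 and 14.8, 13.8 and 13.4 FPKM in MEF. Actl6a, the actin-related subunit of dividing cells, was at 19, 19.4 and 21.5 FPKM in iPSC, 8.54, 8.73 and 9.41 FPKM in D4_DUX, 7.21, 7.2 and 6.86 FPKM in D4 and 9.36, 9.2 and 9.71 FPKM in MEF. Against MEF, the iPSC libraries stood above without overlap, by 0.68 for Smarcb1, 0.54 for Smarce1 and 1.01 for Actl6a (adjusted p = 5.38e-08, 9.64e-08 and 3.14e-09). Actl6a shares 11.6% of its exon bases with Mrpl47 on the opposite strand, which was at 5.22 FPKM in iPSC, 4.05 FPKM in D4_DUX, 3.45 FPKM in D4 and 3.58 FPKM in MEF. Actl6b, the neuronal counterpart, had at most 2 fragments in any library, below the level of 3 fragments (0.025 to 0.0312 FPKM), a floor that covers counting error only, and no share of this pair is given.

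The ARID subunits define which form of BAF is built, with Arid1a and Arid1b in cBAF and Arid2 in PBAF. Arid1a (ENSMUSG00000007880, mm10 chromosome 4, 133679008 to 133756769) was at 29.9, 30.4 and 32.4 FPKM in iPSC, 14.5, 13.6 and 13.9 FPKM in D4_DUX, 11.1, 10.5 and 12.1 FPKM in D4 and 13.6, 12.7 and 12.5 FPKM in MEF. The iPSC libraries were more than double all the others, with a log2 fold change of 1.20 against MEF (adjusted p = 9e-10, SE 0.05). Arid1b was at 4.97, 4.93 and 5.02 FPKM in iPSC, 5.08, 4.82 and 4.87 FPKM in D4_DUX, 4.91, 4.82 and 5.27 FPKM in D4 and 5.54, 5.73 and 5.35 FPKM in MEF, with iPSC overlapping D4_DUX and D4. Its log2 fold change in iPSC was -0.13 against MEF (adjusted p = 0.0132), and -0.01 against D4 (95% interval -0.10 to 0.09, adjusted p = 0.912). The call of Arid1b against MEF ended without MEF replicate 2 (adjusted p = 0.0544), and against D4 Arid1b became a lower call under median-ratio scaling (-0.16) and under quantile normalization (-0.24). Arid1a made up 67.1% ± 0.351 of the 3 ARID genes in iPSC, 56.3% ± 0.76 in D4_DUX, 51.4% ± 0.422 in D4 and 51.1% ± 0.642 in MEF (SD, n = 3 each).

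Of the 4 PBAF subunits, 4 were lower in D4 than in MEF (27.6% of all tested genes were) and 3 were higher in iPSC than in MEF (51% of all tested genes were). Phf10, the PHD-finger subunit of PBAF, was at 25.2, 26.8 and 25.7 FPKM in iPSC, 8.21, 7.64 and 8.28 FPKM in D4_DUX, 8.65, 8.92 and 8.43 FPKM in D4 and 15.6, 15.6 and 14.1 FPKM in MEF. The day 4 libraries of both kinds lay well under MEF and the iPSC libraries well over it, with -0.73 for D4 against MEF (SE 0.05, adjusted p = 9.84e-08) and 0.74 for iPSC against MEF (SE 0.05, adjusted p = 2.83e-08). Pbrm1, the polybromo subunit that reads acetylated histones, was at 14.1, 14.7 and 15.9 FPKM in iPSC, 10.3, 10.5 and 10.3 FPKM in D4_DUX, 10.1, 9.67 and 10.3 FPKM in D4 and 15.5, 15.3 and 14.8 FPKM in MEF. It was lower in D4 than in MEF by a log2 fold change of -0.55 (adjusted p = 5.41e-07, SE 0.04), while iPSC and MEF overlapped (-0.03, 95% interval -0.13 to 0.07, adjusted p = 0.544). That comparison became a lower call under median-ratio scaling (-0.26) and under quantile normalization (-0.29). Arid2 was at 9.78, 10.1 and 10.6 FPKM in iPSC, 5.95, 6.13 and 5.73 FPKM in D4_DUX, 5.76, 4.99 and 6.04 FPKM in D4 and 7.08, 6.72 and 6.67 FPKM in MEF, and Brd7, a bromodomain subunit, at 10.9, 11.5 and 11.8 FPKM in iPSC, 8.49, 7.91 and 7.62 FPKM in D4_DUX, 7.71, 8.27 and 7.36 FPKM in D4 and 9.54, 8.94 and 8.75 FPKM in MEF. Both were highest in iPSC and lower in D4 than in MEF, by -0.25 for Arid2 and -0.20 for Brd7 (adjusted p = 0.003 and 0.00661). The call of Brd7 in iPSC against MEF (0.30, adjusted p = 0.000276) ended under median-ratio scaling (0.07, adjusted p = 0.247) and under quantile normalization (0.03, adjusted p = 0.634). Phf10 shares 9.56% of its exon bases on the opposite strand with 1600012H06Rik, which was at 18.9 FPKM in iPSC, 15.2 FPKM in D4_DUX, 16.1 FPKM in D4 and 16.7 FPKM in MEF.

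Brd9, the bromodomain subunit of ncBAF, went the other way. It was at 4.2, 4.46 and 4.9 FPKM in iPSC, 6.53, 6.58 and 6.49 FPKM in D4_DUX, 5.74, 5.78 and 6.47 FPKM in D4 and 6.22, 6.3 and 5.96 FPKM in MEF. The iPSC libraries were below all others, with -0.38 against MEF (SE 0.05, adjusted p = 4.98e-05). D4 and MEF overlapped, at -0.03 (95% interval -0.16 to 0.09, adjusted p = 0.62). The ratio of Brd9 to Brd7 was therefore lowest in iPSC, with a mean log2 ratio of -1.16 in iPSC, -0.26 in D4_DUX, -0.33 in D4 and -0.49 in MEF.

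Among the DPF proteins of cBAF, Dpf2 carried most of the signal in every group. Dpf2, the widely expressed member, was at 23.4, 24.6 and 23.5 FPKM in iPSC, 12.3, 12.2 and 11.9 FPKM in D4_DUX, 10.7, 11.4 and 11.6 FPKM in D4 and 11.4, 11.5 and 11.1 FPKM in MEF. The D4 and MEF libraries overlapped, and iPSC was higher than MEF by 1.01 (SE 0.04, adjusted p = 1.84e-10). Dpf1, known from neurons, was at 2.05, 1.85 and 2 FPKM in iPSC, 0.922, 0.959 and 0.841 FPKM in D4_DUX, 0.642, 0.678 and 0.895 FPKM in D4 and 0.79, 0.77 and 0.914 FPKM in MEF. Dpf3, known from neurons and muscle, had 62, 47 and 54.9 fragments in iPSC, 7, 18 and 10 in D4_DUX, 4, 2 and 4 in D4 and 2, 0 and 1 in MEF. Only the iPSC and D4_DUX libraries and 2 of the D4 libraries were above 3 fragments, and no fold is given. Dpf2 made up 90.5% ± 0.828 of the 3 genes in iPSC, 92.3% ± 0.604 in D4_DUX, 93.6% ± 0.923 in D4 and 93.2% ± 0.726 in MEF (SD, n = 3 each).

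The BCL7 and SS18 subunits, small partners of the ATPase module, also differed by paralog. Bcl7b was at 16.8, 16.3 and 16.4 FPKM in iPSC, 10, 10.9 and 8.82 FPKM in D4_DUX, 9.1, 11.3 and 8.81 FPKM in D4 and 8.26, 7.93 and 7.19 FPKM in MEF, Bcl7a at 4.64, 4.5 and 4.38 FPKM in iPSC, 1.71, 1.54 and 1.71 FPKM in D4_DUX, 1.61, 1.37 and 1.54 FPKM in D4 and 2.15, 1.92 and 1.97 FPKM in MEF and Bcl7c at 3.5, 3.22 and 2.76 FPKM in iPSC, 2.01, 1.89 and 2.25 FPKM in D4_DUX, 1.7, 1.87 and 1.77 FPKM in D4 and 3.09, 3.5 and 3.14 FPKM in MEF. In iPSC, Bcl7a and Bcl7b were above MEF by 0.87 and 1.00 (adjusted p = 2.07e-08 and 5.79e-07), whereas Bcl7c overlapped MEF (-0.03, 95% interval -0.19 to 0.13, adjusted p = 0.702). Bcl7c also became a lower call under median-ratio scaling (-0.21) and under quantile normalization (-0.32). In D4, Bcl7a and Bcl7c were below MEF (-0.27 and -0.61) and Bcl7b above it (0.28, adjusted p = 0.0161). The call of Bcl7b ended without D4 replicate 2 or MEF replicate 3, or when these groups alone were fitted (adjusted p = 0.0532 to 0.0638). Ss18, the transactivating subunit found in proliferating cells, was at 18.9, 18 and 18.9 FPKM in iPSC, 11.8, 11.1 and 11.6 FPKM in D4_DUX, 8.99, 8.99 and 9.54 FPKM in D4 and 7.97, 7.51 and 7.68 FPKM in MEF. The 4 groups did not overlap and stood in the order iPSC, D4_DUX, D4 and MEF from high to low, with 1.17 for iPSC against MEF (SE 0.04, adjusted p = 9.37e-11). Ss18l1, the paralog known from neurons, was at 3.28, 3.16 and 3.05 FPKM in iPSC, 2.2, 2.34 and 2.47 FPKM in D4_DUX, 2.49, 2.61 and 2.69 FPKM in D4 and 2.31, 2.07 and 2.29 FPKM in MEF. Ss18 made up 85.5% ± 0.559 of the pair in iPSC, 83.1% ± 1.02 in D4_DUX, 77.9% ± 0.385 in D4 and 77.7% ± 0.701 in MEF (SD, n = 3 each). The Ss18l1 call of iPSC against D4 (0.21) did not hold under median-ratio scaling (0.07) and turned to -0.07 with quantile normalization.

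Of the ISWI ATPases, Smarca1 differed between all groups. Smarca1 (SNF2L; ENSMUSG00000031099, mm10 chromosome X, 47809368 to 47892974) was at 2.44, 2.79 and 2.86 FPKM in iPSC, 0.596, 0.669 and 0.546 FPKM in D4_DUX, 1.42, 1.39 and 1.36 FPKM in D4 and 5.12, 4.8 and 5.2 FPKM in MEF. All 4 groups stood apart, with D4_DUX lowest and MEF highest. Smarca5 (SNF2H), the ATPase of most ISWI complexes, was at 22.7, 24.8 and 25.2 FPKM in iPSC, 12.1, 13 and 12.9 FPKM in D4_DUX, 11, 11.9 and 11.8 FPKM in D4 and 12.9, 12.6 and 12.5 FPKM in MEF, where every iPSC library was above, and every D4 library below, those of the other groups. Smarca5 made up 90% ± 0.261 of the pair in iPSC, 95.4% ± 0.435 in D4_DUX, 89.3% ± 0.574 in D4 and 71.6% ± 0.841 in MEF (SD, n = 3 each). Smarca1 was lower in D4 than in MEF by a log2 fold change of -1.34 (adjusted p = 2.42e-09, SE 0.06), the widest change of any tested member in that comparison, and higher in iPSC than in D4 by 0.63 (SE 0.06, adjusted p = 5.89e-07).

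Of Chd3 and Chd4, the alternative ATPases of NuRD, Chd3 had the wider differences. Chd3 (ENSMUSG00000018474, mm10 chromosome 11, 69343273 to 69369406) was at 20.9, 20.2 and 17.8 FPKM in iPSC, 43.6, 41 and 39.9 FPKM in D4_DUX, 35.1, 30.9 and 36.8 FPKM in D4 and 63.8, 60.6 and 63.1 FPKM in MEF. The groups did not overlap and stood in the order iPSC, D4, D4_DUX and MEF from low to high, and Chd3 in iPSC was below MEF by a log2 fold change of -1.62 (adjusted p = 7.25e-10, SE 0.07). Chd4 was at 56.7, 55.7 and 59.4 FPKM in iPSC, 67.1, 64.8 and 63.6 FPKM in D4_DUX, 59.1, 57 and 61.1 FPKM in D4 and 54, 53.6 and 55.3 FPKM in MEF. Between iPSC and MEF it differed by 0.08 (95% interval 0.00 to 0.15, adjusted p = 0.0726), which turned into a lower call of -0.16 (adjusted p = 0.00164) under median-ratio scaling and a higher call without iPSC replicate 2 (adjusted p = 0.0477). Chd4 made up 74.4% ± 2.16 of the pair in iPSC, 61.1% ± 0.442 in D4_DUX, 63.3% ± 1.33 in D4 and 46.5% ± 0.584 in MEF (SD, n = 3 each), so that its share was lowest in MEF.

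Mbd3, the NuRD subunit whose loss has been studied in reprogramming, was at 73, 64.7 and 66.9 FPKM in iPSC, 44.6, 45.9 and 46.5 FPKM in D4_DUX, 38, 35.4 and 35.5 FPKM in D4 and 36.9, 41.2 and 47 FPKM in MEF. The iPSC libraries were the highest, with 0.70 against MEF (SE 0.07, adjusted p = 2.86e-06), and the MEF libraries were the most spread, with a coefficient of variation of 12.1%. Chd1, which remodels nucleosomes in transcribed genes and keeps mouse embryonic stem cell chromatin open, was at 15.8, 16.6 and 17.1 FPKM in iPSC, 9.56, 9.43 and 9.48 FPKM in D4_DUX, 8.92, 8.43 and 9.49 FPKM in D4 and 9.1, 8.37 and 8.56 FPKM in MEF. It was higher in iPSC than in MEF by 0.86 (SE 0.05, adjusted p = 6.21e-09). D4 and MEF overlapped for Chd1 (0.04, 95% interval -0.06 to 0.14, adjusted p = 0.498).

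Ino80, the ATPase that exchanges and spaces nucleosomes at promoters, was at 16.9, 16.9 and 17.7 FPKM in iPSC, 7.33, 7.55 and 7.56 FPKM in D4_DUX, 6.34, 6.83 and 6.67 FPKM in D4 and 7.74, 7.19 and 6.82 FPKM in MEF. Ep400, the ATPase of the TIP60 complex that deposits H2A.Z, was at 13.3, 14.2 and 14.4 FPKM in iPSC, 10.3, 9.72 and 9.96 FPKM in D4_DUX, 8.86, 7.85 and 9.04 FPKM in D4 and 11.1, 10.6 and 10.9 FPKM in MEF. Both were highest in iPSC, by 1.14 for Ino80 (SE 0.04, adjusted p = 3.7e-10) and 0.33 for Ep400 (SE 0.05, adjusted p = 6.63e-05) against MEF. The Ep400 call ended under median-ratio scaling (0.11, adjusted p = 0.0758) and under quantile normalization (0.06, adjusted p = 0.252).

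**Figure D3:**
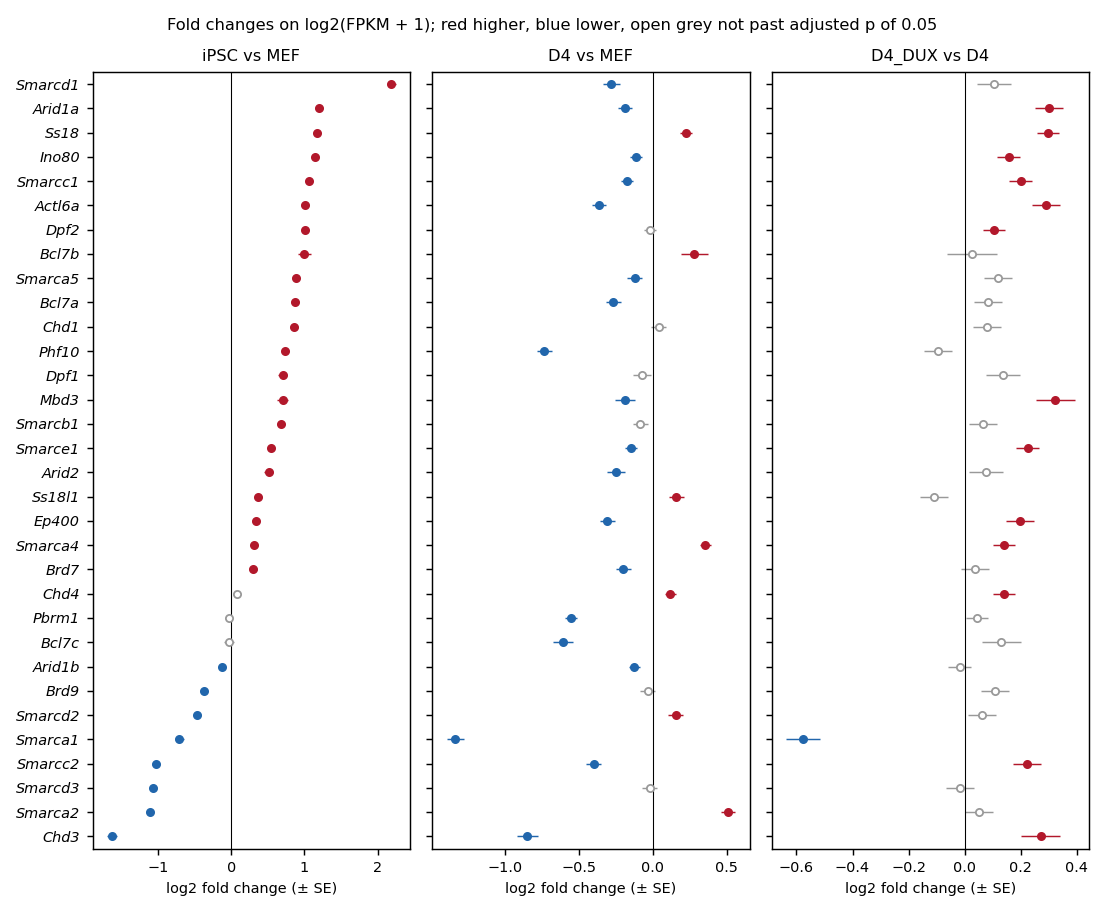
Fold change of the 32 tested remodeller genes on log2(FPKM + 1) with its SE, in iPSC against MEF, D4 against MEF and D4_DUX against D4, each panel on its own axis. The first panel spans -1.62 (Chd3) to 2.19 (Smarcd1), while the D4_DUX panel spans -0.58 (Smarca1) to 0.32 (Mbd3).

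The 14 paralog pairs were each compared across the 4 groups by their log2 ratio, with an exact permutation test of the 12 libraries (369600 arrangements). In 3 of the pairs (Actl6a/Actl6b, Dpf2/Dpf1 and Dpf2/Dpf3) a partner stayed under 1 FPKM in every library outside iPSC, so their ratio follows the other gene and is not read as a comparison of paralogs. The other 11 all passed, and the smallest p this test can give, 6.49e-05, was reached by Smarca4/Smarca2, Smarca5/Smarca1, Chd4/Chd3 and Smarcd1/Smarcd3 (0.000227 when adjusted over the 14 pairs by Benjamini-Hochberg). Pairs that share a gene are not independent of each other. Other gene pairs were not put through this test, so no share over other pairs stands beside the count. As 82.2% of all tested genes were called in iPSC against MEF, passing by itself says little about paralogs. A permutation test of 3 libraries against 3 cannot go below 0.1, so differences between single groups are given as values. The widest was Smarcd1/Smarcd3, with log2 ratios of 2.73, 2.9 and 3.04 in iPSC, -0.5, -0.49 and -0.5 in D4_DUX, -0.58, -0.68 and -0.58 in D4 and -0.38, -0.29 and -0.4 in MEF. Smarcc1/Smarcc2 averaged 1.22 in iPSC, -0.66 in D4_DUX, -0.64 in D4 and -0.87 in MEF. Chd4/Chd3 averaged 1.5 in iPSC, 0.64 in D4_DUX, 0.77 in D4 and -0.20 in MEF.

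Most of the tested members were lower in D4 than in MEF. Of the 32 tested members, 7 were higher and 19 lower in D4 than in MEF, with 61.8% of all genes called (34.2% higher, 27.6% lower) and a median log2 fold change of -0.14 over the members against 0.03 over all genes. The groups did not overlap for 25 of the 32, against 66.5% of all genes. After Smarca1, the lowest fold changes were those of Chd3 (-0.85, SE 0.07, adjusted p = 7.31e-07), Phf10 (-0.73), Bcl7c (-0.61), Pbrm1 (-0.55) and Smarcc2 (-0.40). The higher calls were Smarca2 (0.51), Smarca4 (0.36), Bcl7b (0.28), Ss18 (0.22), Ss18l1 (0.16), Smarcd2 (0.15) and Chd4 (0.12). Under median-ratio scaling the calls of Smarcd2, Ss18l1 and Chd4 ended, leaving 4 higher. The lower calls of Ino80 (-0.11) and Mbd3 (-0.19), whose groups overlapped, ended under 12 and 11 of the alternatives (adjusted p = 0.051 to 0.183 and 0.0557 to 0.177). Across the 4 groups, D4 held the lowest mean of 17 of the 32 members and of 17.8% of all tested genes, and the highest mean of 0 members and of 12.9% of all genes. The macrophage markers fell in this comparison in 16 of 16 cases and the fibroblast markers in 8 of 10, and their part in the lower remodeller levels was not tested.

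**Figure D4:**
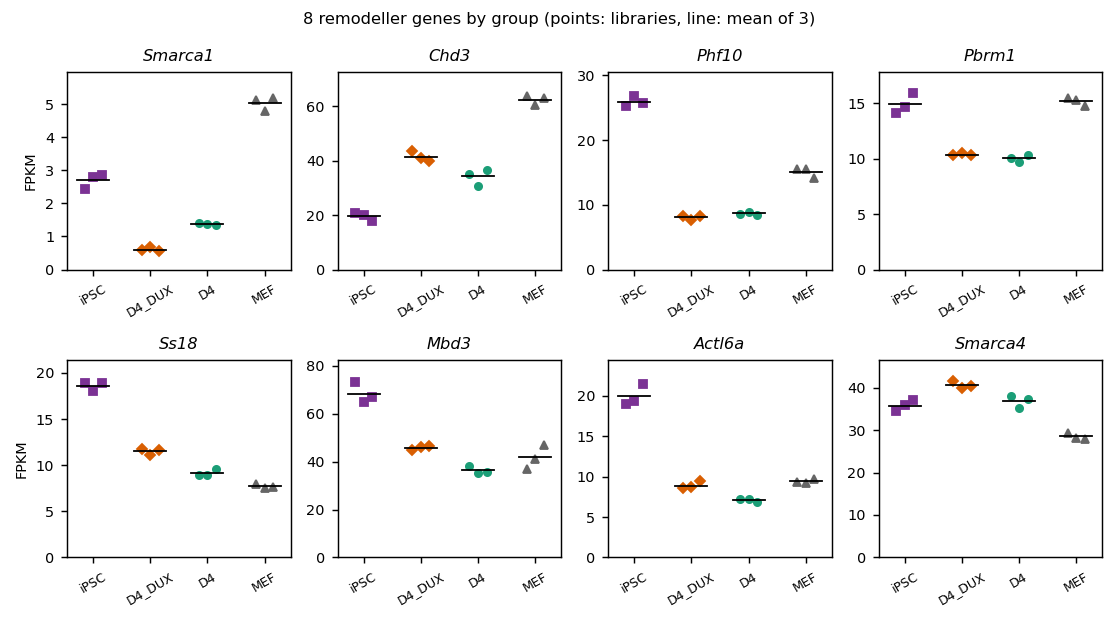
FPKM of 8 remodeller genes by group, with points as libraries and lines as the mean of 3. Smarca1 is lowest in D4_DUX (mean 0.604 FPKM, against 1.391 FPKM in D4), and Chd3, Ss18, Mbd3, Actl6a and Smarca4 have their D4_DUX points above all D4 points.

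The libraries labelled D4_DUX differed from D4 by small increases. Of the 32 tested members, 13 were higher and 1 lower in D4_DUX, with 35.4% of all genes called (20.1% higher, 15.4% lower), and the median log2 fold change was 0.11 over the members and 0.02 over all genes. The groups did not overlap for 20 of the 32, against 50.5% of all genes. D4_DUX, iPSC and MEF are each set against the same D4 libraries in these comparisons, so a low D4 value enters all of them.

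Among BAF genes, Ss18 had 11.8, 11.1 and 11.6 FPKM in D4_DUX and 8.99, 8.99 and 9.54 FPKM in D4, a log2 fold change of 0.30 (adjusted p = 0.000199, SE 0.04) with no overlap. Arid1a had 14.5, 13.6 and 13.9 FPKM in D4_DUX and 11.1, 10.5 and 12.1 FPKM in D4, again 0.30 (SE 0.05, adjusted p = 0.00123). Actl6a had 8.54, 8.73 and 9.41 FPKM in D4_DUX and 7.21, 7.2 and 6.86 FPKM in D4, or 0.29 (SE 0.05, adjusted p = 0.00124). For all 3 genes the lowest D4_DUX library exceeded the highest D4 library. Smaller calls were those of Smarcc2 (0.22), Smarce1 (0.22), Smarcc1 (0.20), Smarca4 (0.14) and Dpf2 (0.10). For Smarca4, the D4_DUX mean was 40.6 FPKM and the D4 mean 36.8 FPKM, and its call (adjusted p = 0.0145) ended with quantile normalization (0.13), without D4_DUX replicate 1 or without D4 replicate 2 (lowest adjusted p = 0.053). The call of Dpf2 ended under 13 alternatives (adjusted p = 0.0542 to 0.334). Both Smarcc genes rose, so the share of Smarcc1 in the pair was 38.2% in D4_DUX and 38.5% in D4.

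Of the 4 PBAF genes, 0 were called in D4_DUX against D4, where 35.4% of all tested genes were called. Their log2 fold changes were -0.10 for Phf10 (95% interval -0.20 to 0.01), 0.04 for Pbrm1 (-0.05 to 0.14), 0.08 for Arid2 (-0.05 to 0.20) and 0.04 for Brd7 (-0.08 to 0.15), with limma adjusted p from 0.141 to 0.637, and 0 of the 4 had an unadjusted p under 0.05. Smarcd1 (0.11), Smarcd2 (0.06) and Smarcd3 (-0.01) were not called either. Smarca2 had 0.05 (95% interval -0.06 to 0.16, adjusted p = 0.477) and Arid1b -0.02 (-0.11 to 0.07, adjusted p = 0.793), while their paralogs Smarca4 and Arid1a were called. The paralog ratio of Arid1a to Arid1b was 1.34 on the log2 scale in D4_DUX and 1.03 in D4, without overlap, and that of Smarca4 to Smarca2 was 1.94 in D4_DUX and 1.85 in D4, also without overlap.

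Outside BAF, Mbd3 had 44.6, 45.9 and 46.5 FPKM in D4_DUX and 38, 35.4 and 35.5 FPKM in D4 (0.32, SE 0.07, adjusted p = 0.00601), the highest fold change of the tested members. Chd3 had 0.27 (SE 0.07, adjusted p = 0.011), Ep400 0.20 (adjusted p = 0.0108), Ino80 0.16 (adjusted p = 0.0192) and Chd4 0.14 (adjusted p = 0.0113). The call of Ino80 ended under 4 alternatives (adjusted p = 0.0542 to 0.0755), namely quantile normalization and the fits without D4_DUX replicate 2, D4_DUX replicate 3 or D4 replicate 1, and that of Chd4 under quantile normalization or without D4_DUX replicate 1 (0.0514 to 0.0533). Smarca1 was the 1 lower call, with 0.596, 0.669 and 0.546 FPKM in D4_DUX and 1.42, 1.39 and 1.36 FPKM in D4, a log2 fold change of -0.58 (adjusted p = 2.29e-05, SE 0.06) and an FPKM ratio of 0.434. In fragments this was 96.9, 110 and 79.9 in D4_DUX and 195.8, 211.5 and 206.8 in D4. Smarca5, its paralog, had 0.12 (95% interval 0.02 to 0.22, adjusted p = 0.0625), which became a call without iPSC replicate 1 (0.0286). In the same comparison the macrophage markers fell in 15 of 16 cases, with a median log2 fold change of -1.18, and the fibroblast markers in 7 of 10, with a median of -0.51, and the part of these cells in the Smarca1 value was not tested.

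Other remodeller genes were described from 5 lists of related subunits. In D4_DUX against D4, 4 of 11 further ISWI partners were higher and 0 lower, where 20.1% of all tested genes were higher and 15.4% lower, among them Baz1b (14.9 FPKM in D4_DUX and 11.8 FPKM in D4, log2 fold change 0.31, adjusted p = 9.95e-05), the partner of Smarca5 in the WICH complex. Of 16 further CHD and NuRD genes, 5 were higher and 2 lower, with Zmynd8 at 0.31 (adjusted p = 0.000636) and Chd2 at -0.24 (adjusted p = 0.000571). Of 29 further INO80, SRCAP and TIP60 genes, 8 were higher and 0 lower, led by Mrgbp, a TIP60 subunit, at 10.05 FPKM in D4_DUX and 6.82 FPKM in D4 (0.50, adjusted p = 3.6e-05). Of 14 further SNF2-type ATPases, 4 were higher and 0 lower, led by Btaf1 at 0.34 (adjusted p = 0.000544), which removes TBP from DNA. Of the 3 further BAF genes (Bicra, Bicral and Actb) limma called 0, and 0 had an unadjusted p under 0.05. At an unadjusted p under 0.05, the lists with 0 lower calls held 0 lower ISWI partners, 1 lower INO80, SRCAP or TIP60 gene and 1 lower SNF2-type ATPase.

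In iPSC against MEF the same lists held 10 higher and 0 lower of 11 ISWI partners, 13 and 2 of 16 CHD and NuRD genes, 24 and 2 of 29 INO80, SRCAP and TIP60 genes, and 13 and 0 of 14 SNF2-type ATPases, where 51% of all tested genes were higher and 31.2% lower. The list of 3 further BAF genes went mostly the other way, with 1 higher and 2 lower. Hells, which supports DNA methylation at repeats, was at 49, 53.6 and 58.6 FPKM in iPSC and 5.12, 5.17 and 5.41 FPKM in MEF (3.13, SE 0.06, adjusted p = 1.02e-12). Cecr2, an ISWI partner, was at 4.88 FPKM in iPSC and 0.00715 FPKM in MEF and is given as a level only, since it passed the filter through the 3 iPSC libraries alone. It is counted among the 10 higher ISWI partners, where its call carries no weight of its own. Chd7 was at 6.08 FPKM in iPSC and 0.737 FPKM in MEF (2.03, adjusted p = 1.55e-11). Ino80c was higher by 1.85 (adjusted p = 7.05e-09), while Mbd2, the methyl-CpG-binding alternative to Mbd3 in NuRD, was lower by a log2 fold change of -0.69 (adjusted p = 7.29e-07), at 9.38 FPKM in iPSC and 15.7 FPKM in MEF. The lowest call among the INO80, SRCAP and TIP60 genes was Znhit1 (-0.23, limma adjusted p = 0.00183), at 16.93 FPKM in iPSC and 20.09 FPKM in MEF. The pair of alternative ncBAF scaffolds split as well. Bicral was at 19.1, 20.4 and 22.2 FPKM in iPSC and 3.85, 4.01 and 3.4 FPKM in MEF (2.18, SE 0.07, adjusted p = 4.16e-11), and Bicra at 3.13, 3.36 and 3.62 FPKM in iPSC and 7.48, 7.04 and 6.84 FPKM in MEF (-0.89, SE 0.07, adjusted p = 1.08e-07). In D4 against MEF, these lists held 2 higher and 4 lower of 11, 6 and 3 of 16, 5 and 8 of 29, 2 and 6 of 14, and 0 and 2 of the 3 further BAF genes, where 34.2% of all tested genes were higher and 27.6% lower.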

How the data were processed

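Libraries were poly(A)-selected and stranded and were sequenced in pairs on a NovaSeq 6000, per the labels' protocols. The values used are FPKM per Ensembl gene as deposited by the authors in 1 table of 12 columns, and the submitters' processing notes name the build mm10. No source used here names the aligner, counter, annotation or use of strand. Of 40384 identifiers, 40225 (99.61%) matched GENCODE M21. FPKM values are not counts. In the low values, 52.1 to 55.3% came out as whole multiples of 1 fragment within 0.01, so counted fragments are estimates, and no count test was run.

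FPKM + 1 was taken to log2, genes with at least 1 FPKM in at least 3 libraries were kept, and 4 group means were fitted over all 12 libraries with limma 3.58.1 (R 4.3.3), with a prior that follows mean level. P-values were adjusted by Benjamini-Hochberg over 17114 genes, and a call is an adjusted p under 0.05. Paralog ratios are differences of log2(FPKM + 1), tested by exact permutation of group labels. The steps were tested on simulated data. Alternatives covered the constant, the filter, TPM, the scaling, the replicate block, the groups fitted and each library left out. Same-numbered libraries did not deviate together (correlations of -0.1461 to 0.0699 over 18 pairs, 0 over 0.1), so the numbers were not taken as pairs. No 2 of the 66 column pairs were identical. The named genes are all 34 members, Duxf3 and, from each list of other remodellers, the highest and lowest call in D4_DUX against D4 and in iPSC against MEF. The members and lists were chosen with earlier results of these data known.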

Additional observations from a re-analysis of the deposited data

How the results depend on the processing

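Each count and named gene was recomputed with other constants (0.1 and 0.5), without a filter or with at least 5 FPKM in 3 libraries, as TPM, with median-ratio scaling or quantile normalization, in the compared groups alone and without each library in turn. Over single genes and ratios, 3846 values stayed on their side of the threshold with no called value changing sign, though 25 of these, called under neither setting, did change sign. Another 84 lost a call, 30 gained one and 6 turned round, being called as deposited, under the alternative or under both. The values that turned were Chd4 in iPSC against MEF (-0.16, median-ratio scaling), Ss18l1 in iPSC against D4 (-0.07, quantile normalization) and, for iPSC minus MEF, Dpf2/Dpf1 (-0.1), Dpf2/Dpf3 (-1.44) and Bcl7b/Bcl7a (-0.05) with a constant of 0.1, and Dpf2/Dpf3 (-0.33) as TPM. Chd4 was called under the alternative only. Ss18l1, Dpf2/Dpf1 and, as TPM, Dpf2/Dpf3 were no longer called once turned. Dpf1 and Dpf3 were under 1 FPKM in every library outside iPSC, and the cause of the turns was not tested. The single lower call in D4_DUX against D4 became 0 with the 5 FPKM filter, which removes Smarca1, and the higher calls in D4 against MEF became 4 with median-ratio scaling. With quantile normalization, 9 members were higher and 1 lower in D4_DUX against D4.

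Leaving out 1 library gave 10 to 14 higher and 1 lower call (11 to 15 in all) in D4_DUX against D4, 5 to 7 higher and 15 to 18 lower (21 to 25) in D4 against MEF, 21 to 22 and 7 to 8 (28 to 30) in iPSC against MEF, 23 and 6 (29) in iPSC against D4, and 14 paralog pairs past the test. The counts of pairs include the 3 pairs not read as paralog comparisons. The paralog pairs numbered 13 and 12 with constants of 0.1 and 0.5, and 12 as TPM.

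Replicate numbers are shared by the groups. No label says that they pair libraries, and the correlations above showed no pairing. With the replicate block, 12 members were higher and 1 lower in D4_DUX against D4, 7 and 17 in D4 against MEF, 21 and 8 in iPSC against MEF and 23 and 6 in iPSC against D4.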
